A study of Arabidopsis thaliana with 12 samples.

Results

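The genes described here encode 5 nuclear-encoded proteins of the thylakoid photosystems and their antenna in Arabidopsis thaliana, a small flowering plant used as a laboratory model. They are PSAN (AT5G64040) of photosystem I, PSBW (AT2G30570), PSBY (AT1G67740) and PSB27 (AT1G03600) of photosystem II, and LHB1B2 (AT2G34420) of the light-harvesting antenna. Each was read from a probe whose annotation lists that gene alone, with the brightest probe to be taken where a gene had several. Each of the 5 genes had 1 such probe and no probe shared with another gene, so 5 of 3439 probes on the array, and of 692 probes with a single annotated gene, entered this description. Total RNA was hybridised to single-channel arrays, giving 6 readings of the toc90 mutant and 6 of the wild type (WT), both of ecotype Columbia 0. The toc90 mutant is described in the labels as impaired in taking up proteins through the outer envelope of the chloroplast. The labels give no allele, tissue, age or growth condition, and do not say whether readings came from separate plants, so p-values measure only the spread between these readings, which may be technical.

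Photosystems I and II are pigment-protein complexes of the thylakoid membrane that drive electron transport in photosynthesis, and the light-harvesting antenna passes absorbed energy to them. Their core subunits are in part encoded in the plastid genome, whereas the 5 proteins described here are made in the cytosol as precursors and enter the chloroplast through the translocon complexes of its envelope. TOC90 belongs to the family of receptor GTPases of the outer translocon, whose best known member is TOC159. PSAN sits on the lumenal side of photosystem I, where plastocyanin docks. PSBW and PSBY are small membrane-spanning subunits of photosystem II, and PSB27 is a lumenal factor in its assembly and repair. LHB1B2 encodes a chlorophyll a/b-binding protein of the Lhcb1 type, the major protein of the trimeric antenna of photosystem II. The Lhcb1 genes are close copies of each other, so the LHB1B2 probe may also read its paralogs, although its annotation lists 1 gene.

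The deposited intensities ran from 0 to 100 on a scale that is not given in the sources used here. The toc90 readings differed more among themselves than the WT readings did, with Spearman correlations between readings of 0.659 to 0.843 in toc90 and 0.910 to 0.973 in WT over all probes. Between 20.3% and 33.4% of probes were listed at 0 in toc90 and between 13.5% and 17.3% in WT, and column medians ran from 0.0593 to 0.0687 in toc90 and from 0.151 to 0.157 in WT. Column means ranged from 0.736 to 1.06 in toc90 and from 0.768 to 1.03 in WT, with numbers 3 and 4 the highest in both groups. No member was listed at 0 in any of the 12 readings, and none reached 100. TOC90 and the 7 marker genes fixed for seed and root were on no single-gene probe, so neither the mutation nor the organ was checked by its transcripts here.

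PSAN was the member whose signal stood highest in toc90 relative to WT, and PSBY the only one called lower after quantile normalization. Across the 5 genes the deposited group means of toc90 were between 0.885 times (PSBY) and 1.44 times (PSAN) those of WT. After quantile normalization, limma called 1 of the 5 members at a Benjamini-Hochberg adjusted p under 0.05 over 2687 tested probes. That member, PSBY, was lower in toc90, while 23.9% of all tested probes were called, 17% lower and 6.92% higher. The median log2 difference was -0.35 over the 5 members and -0.21 over all tested probes. The order of these medians turned with the scaling, at -0.00085 over the members and -0.66 over all tested probes with column sums, and 0.66 and 0.01 with median scaling. In a bulk RNA sample, fewer cells of a type and less RNA per cell cannot be told apart.

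The antenna gene LHB1B2 had nearly the same deposited mean in both groups. Its lowest, median and highest readings were 19.7, 24.4 and 41.0 in toc90, against 21.5, 27.3 and 35.3 in WT. The groups overlapped widely, and the spread was larger in toc90, with a mean of 28.4 ± 9.04 in toc90 and 28.3 ± 5.10 in WT (SD, n = 6 each). Its log2 difference after quantile normalization was -0.36 ± 0.14 (SE, limma adjusted p = 0.083), which did not pass. As a share of the summed intensity of its column, LHB1B2 made up 0.953% ± 0.131 in toc90 and 0.950% ± 0.0947 in WT (SD, n = 6 each), and on this scale the log2 difference was -0.00085 ± 0.15 (SE, limma adjusted p = 0.997).

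Among the photosystem II genes, PSBW had the brightest of the 5 probes. Its lowest, median and highest deposited readings were 33.6, 40.2 and 60.3 in toc90, against 38.3, 48.3 and 64.1 in WT. The groups overlapped, although 2 toc90 readings, numbers 1 and 5, lay below every WT reading. How common this was over all probes was not counted. The log2 difference of PSBW after quantile normalization was -0.35 ± 0.17 (SE, limma adjusted p = 0.171). Its share of the column sum was 1.51% ± 0.159 in toc90 and 1.65% ± 0.183 in WT (SD, n = 6 each). In log2 this was a change of -0.12 ± 0.14 (SE), with a limma adjusted p of 0.515.

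PSBY, whose precursor is cut into separate small photosystem II polypeptides, had readings of 2.05, 2.52 and 3.88 (lowest, median, highest) in toc90, against 2.59, 3.0 and 3.99 in WT. Numbers 1, 2, 5 and 6 of toc90 were lower than the lowest WT value, whereas numbers 3 and 4 lay within the WT range. The columns of numbers 3 and 4 had the highest means in both groups. Set against the WT reading of the same number, deposited PSBY was lower in toc90 for 6 of 6 numbers. How common such a pattern was over all probes was not counted. In the values as deposited, the log2 difference was -0.20 for PSBY, against a median of -0.72 over all tested probes. The log2 difference after quantile normalization was -0.44 ± 0.13 (SE, limma adjusted p = 0.0285). This call ended in every other scaling that kept the sign, for example at -0.17 ± 0.14 with each column divided by its sum (SE, limma adjusted p = 0.347) and -0.21 ± 0.11 with cyclic loess (SE, limma adjusted p = 0.197). It also ended when WT reading 1, 2, 3, 5 or 6 was left out, with limma adjusted p of up to 0.0614, and with neighbouring readings averaged (limma adjusted p = 0.298).

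PSB27, the assembly factor, was the dimmest and most variable member. Its readings were 0.551, 1.06 and 1.76 (lowest, median, highest) in toc90, against 0.517, 1.10 and 1.46 in WT. The ranges nearly coincided, and the coefficient of variation was 42.1% in toc90 and 35.1% in WT. The log2 difference after quantile normalization was 0.03 ± 0.28 (SE, limma adjusted p = 0.941), and its sign depended on single readings, as it ran from -0.14 to 0.17 when each reading was left out.

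PSAN, the photosystem I subunit, had deposited readings of 6.56, 8.53 and 12.8 (lowest, median, highest) in toc90, against 5.04, 6.62 and 7.37 in WT. Of the 6 toc90 readings 5 lay above every WT reading, and number 5, at the low end, lay inside the WT range. A pattern of at least 5 of 6 toc90 readings above every WT reading occurred in 2.67% of the 3333 probes with a value above 0. That share covers probes of every brightness, and it was not counted among bright probes such as PSAN alone. PSAN made up 0.308% ± 0.0336 of the column sum in toc90 and 0.214% ± 0.0327 in WT (SD, n = 6 each). On that scale, chosen after seeing the data, it was called higher (log2 difference 0.53 ± 0.15, SE, limma adjusted p = 0.0192), where 4.17% of tested probes were called higher and 31% lower. Its difference was larger than that of 92.0% of the tested probes on that scale and of 68.8% after quantile normalization, where it was not called (0.18 ± 0.17, SE, limma adjusted p = 0.463).

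**Figure D1:**
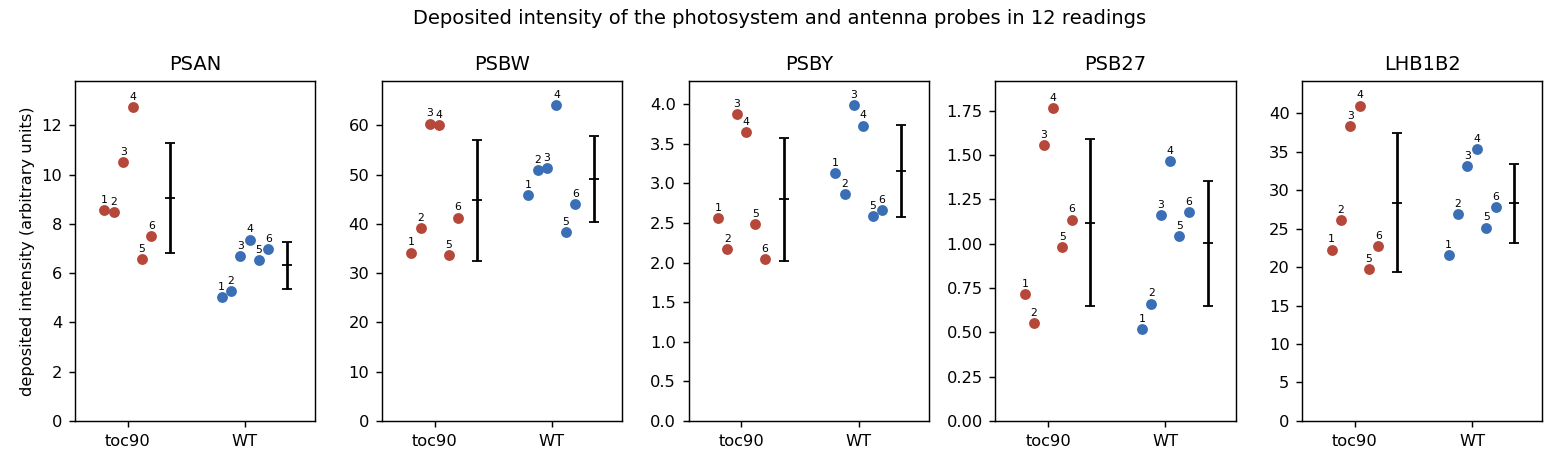
Deposited intensity (arbitrary units, axis from 0) of each probe in the 6 toc90 readings (red, left) and the 6 WT readings (blue, right), with the reading number beside each point and the mean ± SD in black. PSAN has 5 of 6 toc90 points above every WT point, while the other 4 genes overlap, and numbers 3 and 4 are high in both groups.

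The direction of 3 of the 5 genes was set by how the columns were put on a common scale. PSBW, PSBY and LHB1B2 stood below 0 after quantile normalization, division by column sums, cyclic loess, an offset, zeros set to the lowest positive value and in the values as deposited. Median scaling divided each column by the median of its values above 0, with zeros left out. With it, PSBW stood at 0.54 ± 0.16 (SE, limma adjusted p = 0.0223), PSBY at 0.50 ± 0.15 (SE, limma adjusted p = 0.0295) and LHB1B2 at 0.66 ± 0.16 (SE, limma adjusted p = 0.00839). PSAN and PSB27 stayed above 0 in each of these 7 settings, PSAN from 0.18 to 1.2 and PSB27 from 0.03 to 0.83. Median scaling called 4 of the 5 members higher, where 16% of all tested probes were called higher, and cyclic loess called PSAN alone (0.46 ± 0.14, SE, limma adjusted p = 0.0308), where 12.2% were called higher. The median of all tested probes was -0.21 after quantile normalization, -0.66 with column sums, -0.72 in the values as deposited and 0.01 with median scaling. Relative to that median, PSAN stood at 0.39 after quantile normalization and at 1.19 with column sums, and PSBY at -0.23 and 0.49. LHB1B2 stood at -0.15 and 0.66 in the same settings.

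**Figure D2:**
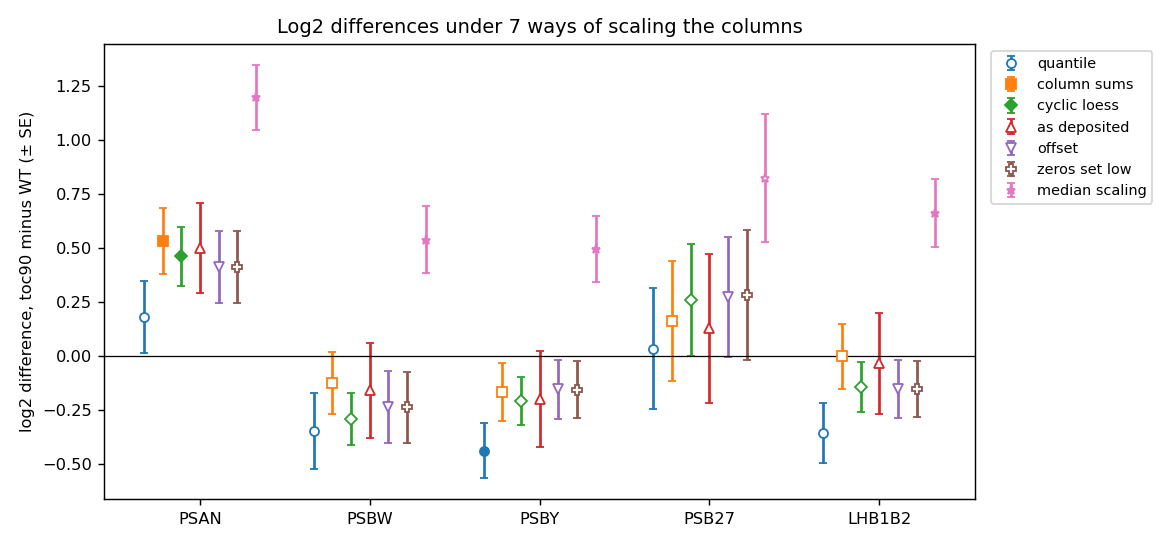
Log2 difference of toc90 minus WT (± SE, 6 readings a group) for each gene under 7 ways of scaling the columns, with filled markers where the limma adjusted p was under 0.05 (in the median scaling series all but PSB27 are filled). PSAN lies above 0 in all 7, whereas PSBW, PSBY and LHB1B2 lie above 0 in median scaling only.

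A ratio of probes within the same reading does not change with any factor applied to a whole column. Ratios were therefore compared for the 10 pairs of members with two-sided exact permutation tests over every way of dividing the readings into 6 and 6. The signal of PSAN rose against those of PSBW, LHB1B2 and PSBY in toc90, by 1.45 to 1.63 times. The log2 ratio of PSAN to PSBW was -2.29 ± 0.19 in toc90 and -2.95 ± 0.29 in WT (SD, n = 6 each), a difference of 0.66 (exact permutation p = 0.00216, adjusted over 10 pairs 0.00722). That of PSAN to LHB1B2 was -1.62 ± 0.16 in toc90 and -2.16 ± 0.17 in WT, a difference of 0.54 with the same exact p. For PSAN to PSBY it was 1.70 ± 0.23 in toc90 and 1.0 ± 0.30 in WT, a difference of 0.70 with the same exact p. In each of these 3 pairs all 6 toc90 readings lay above every WT reading, and 0.00216 is the smallest p that the design allows.

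Unequal change of this kind was common on the array. Of 1085601 pairs among the 1474 probes above 0 in all 12 columns, 17.7% had groups that did not overlap in either direction, and among the 342 probes with a mean of at least 1 it was 23.6%. The 3 of 10 member pairs, which all hold PSAN, are not far from that share, and nothing particular to these genes is read from their number. The ratio of PSAN to each other probe was higher in all 6 toc90 readings than in every WT reading for 38.1% of 1473 probes, and for 27.9% of the 341 other probes with a mean of at least 1.

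With neighbouring readings averaged, the 3 toc90 values of each of these ratios still lay above the 3 WT values. The lowest toc90 and the highest WT average were -2.41 and -2.60 for PSAN to PSBW, -1.78 and -1.97 for PSAN to LHB1B2, and 1.62 and 1.36 for PSAN to PSBY. An exact test of 3 against 3 cannot go below 0.1.

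**Figure D3:**
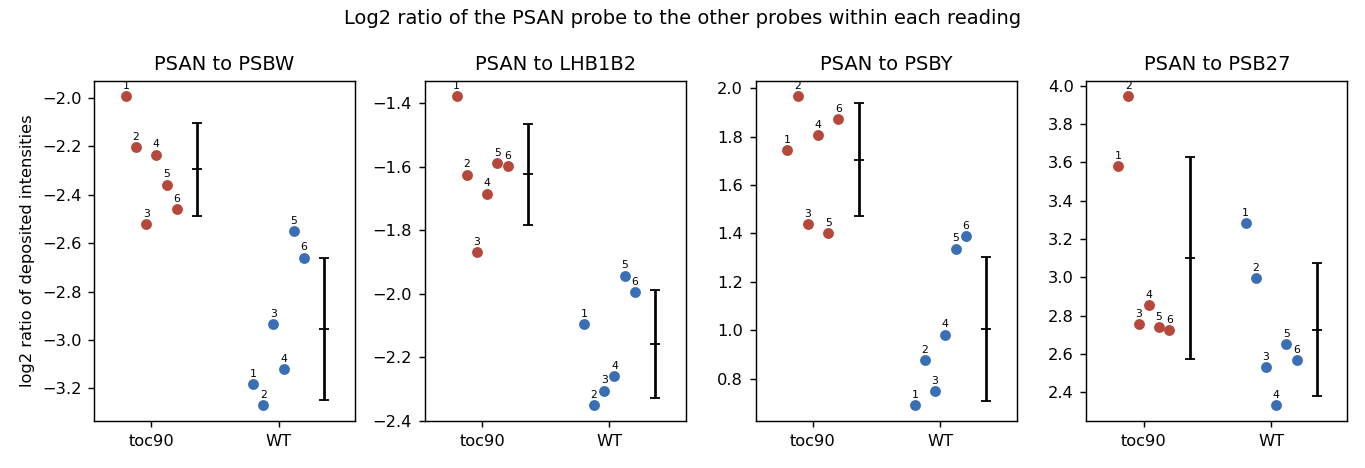
Log2 ratio of the deposited PSAN intensity to that of each other gene within a reading, for 6 toc90 readings (red, left) and 6 WT readings (blue, right), with reading numbers and the mean ± SD in black. Against PSBW, LHB1B2 and PSBY the groups do not overlap, and against PSB27 they do.

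PSAN to PSB27 did not pass, with a log2 ratio of 3.10 ± 0.53 in toc90 and 2.73 ± 0.35 in WT (SD, n = 6 each, exact permutation p = 0.186, adjusted over 10 pairs 0.363). Its difference of 0.37 was 0.20 without toc90 reading 2. The 6 pairs without PSAN did not pass either, with differences of 0.04 to 0.33 in log2 and exact permutation p of 0.204 to 0.723. Those with PSB27 were smaller without WT reading 1, for example 0.13 against 0.29 with all readings for PSB27 to PSBW. The ratio of PSBW to PSBY differed least, at 4.0 ± 0.23 in toc90 and 3.96 ± 0.18 in WT (SD, n = 6 each). The ratio of the antenna gene LHB1B2 to PSBW was -0.67 ± 0.12 in toc90 and -0.80 ± 0.19 in WT (SD, n = 6 each, exact permutation p = 0.204). Set side by side by reading number, toc90 was higher in 6 of 6 for PSAN to PSB27 and for PSB27 to PSBW. For the other pairs that missed it was higher in 3 to 5 of 6. How common this was over all pairs of probes was not counted. These misses do not show that the ratios were equal in both groups.

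The place of each probe in the order of brightness within its own reading gave a further measure that no monotone scaling alters. Counted from the brightest of 3439 probes, PSAN held rank 57.7 ± 7.50 in toc90 and 75.3 ± 11.2 in WT (SD, n = 6 each), so it stood 17.7 places nearer the top in toc90. Its exact permutation p was 0.0195, and 0.063 adjusted over all probes, which did not pass. Over all probes 28.3% passed, and 17.6% passed with a brighter rank in toc90. Ranked among the 692 single-gene probes alone, where there are fewer places, the difference was -1.67 places for PSAN and -14.7 for PSB27. It was 0.67 to 1.0 for the other members, and none of the 5 members passed there. The ranks of LHB1B2 (24.5 ± 2.07 in toc90 and 22.2 ± 1.94 in WT) and PSBW (13 ± 3.29 in toc90 and 10 ± 3.03 in WT) moved by only a few places, with exact permutation p of 0.108 and 0.152 (SD, n = 6 each). PSBY stood at 145 ± 14.1 in toc90 and 133 ± 6.72 in WT (SD, n = 6 each, exact permutation p = 0.0931), and PSB27 at 337 ± 88.9 in toc90 and 404 ± 142 in WT (SD, n = 6 each, exact permutation p = 0.351). The PSB27 difference of -66.7 places leaned on WT reading 1, without which it was -19.3.

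Part of the spread of all 5 genes followed the reading numbers. Numbers 3 and 4 gave the highest average of neighbouring readings for each gene in both groups, and their column means were also the highest. PSB27 averaged 0.634, 1.66 and 1.06 in numbers 1 and 2, 3 and 4, and 5 and 6 of toc90, against 0.589, 1.31 and 1.11 in the same numbers of WT. This range of pair averages, 1.40 in log2 in toc90 and 1.16 in WT, was larger than any gap between neighbouring readings of PSB27, at most 0.38 in toc90 and 0.35 in WT. Over 1474 probes, deviations from the group means correlated between neighbouring readings at 0.434, 0.504 and 0.521 in WT. In toc90 they correlated at 0.132, -0.0837 and 0.353, for numbers 1 and 2, 3 and 4, and 5 and 6. The exact tests of 6 against 6 readings take no account of this likeness. Whether neighbouring numbers share an extract or an array is not given in the labels.

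Readings of the same number were also set side by side, as a description, since the numbers were not taken to pair the readings across groups. On the scale of column sums, toc90 minus WT for PSAN was 0.86, 0.74, 0.59 and 0.76 in log2 for numbers 1 to 4, but 0.09 and 0.17 for numbers 5 and 6. All 6 values were above 0. For LHB1B2, numbers 1 to 4 ran from 0.01 to 0.18, while numbers 5 and 6 stood at -0.27 and -0.23. PSBY was below 0 for 5 of 6 numbers and PSBW for 5 of 6. Values below 0 were usual on this scale. Over all tested probes, 22.1% had a log2 difference above 0 with column sums, and the median was -0.66. Leaving out both numbers 3 and 4 of toc90, chosen after seeing the data, left the PSAN difference after quantile normalization at 0.27 and kept PSBY called (-0.43, limma adjusted p = 0.0372).

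**Figure D4:**
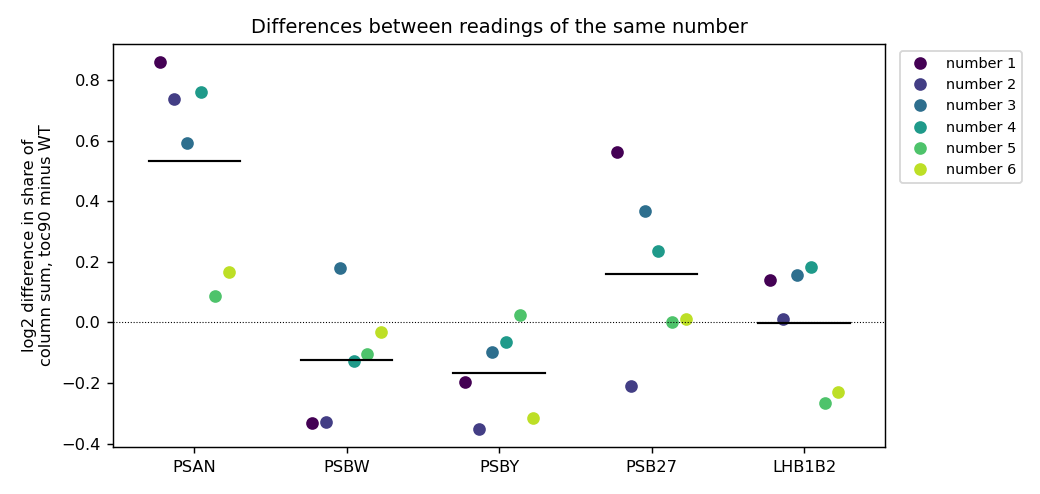
Log2 difference of toc90 minus WT between readings of the same number, after each column was divided by its sum. Each number has 1 point, and the mean is a black line. The numbers are used to order the readings and were not taken as pairs. All 6 PSAN points lie above 0, with numbers 5 and 6 at 0.09 and 0.17 apart from the other four.

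The genes varied together over the 12 readings to different degrees, which is a description since all share the same columns and normalization. After quantile normalization, PSBW and LHB1B2 had a Pearson r of 0.75, and 0.56 within groups, and PSBY and LHB1B2 had 0.59, and -0.46 within groups. PSAN had r of -0.44 to 0.20 with the other 4 genes. Of 270 other single-gene probes with values in all 12 columns, the closest to the mean standardised profile of the 5 genes were AT1G62150 (r = 0.90), AT4G17650 (0.84) and AT1G01080 (0.84). Within groups their r was 0.79, 0.83 and 0.75, in the same order. The 3 probes were picked from the 270 by their r over the 12 readings, which is therefore high by selection. All 3 had lower deposited means in toc90, at 0.458 ± 0.0922 in toc90 and 0.703 ± 0.127 in WT for AT1G62150, 0.0508 ± 0.0261 in toc90 and 0.141 ± 0.0576 in WT for AT4G17650, and 0.0678 ± 0.0425 in toc90 and 0.702 ± 0.12 in WT for AT1G01080 (SD, n = 6 each). Lower values in toc90 were common on the array. As deposited, only 20.5% of all tested probes had a log2 difference above 0, so nothing particular to these 3 probes is read from their direction.

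Other genes of photosynthesis were scarce among the single-gene probes. Of 78 nuclear genes listed for the photosystems, antenna, electron transport, plastid ATP synthase and Calvin cycle, 7 had such a probe, and 5 of those are the genes above. The other 2 of the 7 belong to the Calvin cycle, PRK and SBPASE. Probes with several genes listed 6 of the 78 genes and were not read. Whether PRK or SBPASE is among these 6 was not counted. PRK, the phosphoribulokinase that regenerates the acceptor of carbon dioxide, had readings of 1.40, 1.88 and 3.67 (lowest, median, highest) in toc90, against 1.74, 2.30 and 3.47 in WT. The groups overlapped, with 3 toc90 values under the lowest WT value, a pattern that was not counted over all probes. The log2 difference of PRK after quantile normalization, -0.43 ± 0.21, did not pass (SE, limma adjusted p = 0.153). Its sign also depended on the scaling, as it stood at 0.50 ± 0.20 with median scaling (SE, limma adjusted p = 0.0888) and at -0.17 ± 0.21 with column sums (SE, limma adjusted p = 0.549). SBPASE, the sedoheptulose-bisphosphatase of the same cycle, was listed at 0 in all 12 readings and was not tested.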

How the data were processed

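The deposited table held 1-channel array intensity values for 12 samples, 6 of toc90 and 6 of WT, grouped and numbered by their titles. How the authors made this intensity (scanner, background, scaling, gene build) is not given in the sources used here. Values ran from 0 to 100, 5 columns reached 100 (tolerance 1e-06), and the floor and the number of arrays limit the precision. Of 3439 probes, 692 had 1 gene in the platform annotation, 870 several, and 1877 carried no name here. Symbols came from a gene table of assembly TAIR10.1, which matched 690 of the 692.

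Zeros were treated as missing, log2 values were quantile normalized, and probes with at least 3 values a group (2687) were fitted with lmFit and eBayes of limma 3.58.1 (R 4.3.3), two-sided, with Benjamini-Hochberg adjustment over all probes tested. Ratios and ranks used exact permutation tests over all divisions of the readings, two-sided. Ranks were planned with adjustment over the 5 members, but are given with adjustment over all probes. Alternatives were cyclic loess, median scaling, no normalization, zeros replaced by the lowest positive value, an added offset of 0.0274, no probes from the dimmest 25%, a replicate block by number, neighbouring readings averaged or as a random block, a trended robust variance, and omission of each reading in turn. Column sums and leaving out numbers 3 and 4 of toc90 were added after seeing the data. In deviations from the group means over 1474 probes, same-numbered readings correlated across groups at 0.0766 to 0.246. The mean for readings of unlike number was -0.0316, so same-numbered readings were more alike. All same-number correlations were positive but not all were over 0.1, and the numbers were not taken as pairs. The main tests therefore take no account of this likeness, and the replicate block is given as an alternative. With that block the SE of the PSB27 log2 difference was 0.18, against 0.28 in the main fit. The SE of each other member was larger with the block.

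Genes named were the 5 members, photosynthesis genes of a fixed list on single-gene probes, and the 3 probes most like the members' mean profile. The members and lists were chosen with earlier results of these data known. The scripts were tested on simulated data. Figures used matplotlib 3.10.9.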

Additional observations from a re-analysis of the deposited data

How the results depend on the processing

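Column sums and leaving out numbers 3 and 4 of toc90 were chosen after seeing the data. The cause of the changes below was not tested, except that averaging leaves 3 values a group. Over all probes, the 643 calls (186 higher, 457 lower) became 353 (180 and 173) with cyclic loess, on 1474 probes tested, 981 (85 and 896) without normalization, 260 (167 and 93) with zeros replaced by the lowest positive value, 107 (30 and 77) with neighbouring readings averaged and 277 (68 and 209) with these as a random block. The replicate block, although the numbers were not taken as pairs, gave 418 (118 and 300). Calls numbered 770 (431 and 339) with median scaling and 945 (112 and 833) with column sums. Among the 5 genes, calls numbered 4 with median scaling, 2 with trend and robust variance (PSBY and LHB1B2, -0.36, limma adjusted p = 0.0164), and 0 without normalization, with zeros replaced, an offset, the replicate block, averages or the random block. Leaving out each reading gave 0 to 2. Where limma called 0, an unadjusted p under 0.05 was held by PSAN without normalization, with zeros replaced and with an offset, by PSBY with the replicate block and the random block, and by 0 of the 5 with averages. Without WT reading 1, 2, 3, 5 or 6, where limma also called 0, it was held by PSBY and LHB1B2, and without reading 3 by PSBW too.

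PSAN was called at 1.2 with median scaling, 0.46 with cyclic loess and 0.53 with column sums. PSBY fell short at -0.21 with cyclic loess, -0.20 without normalization, -0.16 with zeros replaced, -0.15 with an offset and -0.17 with column sums. It also did so at -0.44 with the replicate block (limma adjusted p = 0.0816), the averages and the random block. Median scaling turned PSBW to 0.54, PSBY to 0.50 and LHB1B2 to 0.66. PSB27 turned to -0.086 without numbers 3 and 4 of toc90. With each reading left out, PSAN ran from 0.13 to 0.26, PSBW from -0.41 to -0.27, PSBY from -0.48 to -0.41, PSB27 from -0.14 to 0.17 and LHB1B2 from -0.44 to -0.32, called only without toc90 reading 6 (limma adjusted p = 0.0315). The rank difference of PSAN ran from -20.9 to -15.5, that of PSBW from 1.8 to 3.8, of PSBY from 7.2 to 15.2 and of PSB27 from -96.2 to -19.3. The difference in log2 ratio ran from 0.20 to 0.48 for PSAN to PSB27 and from 0.13 to 0.44 for PSB27 to PSBW, and from -0.025 to 0.095 for PSBW to PSBY. The ratios of PSAN to PSBW (0.66), LHB1B2 (0.54) and PSBY (0.70) kept their call when each reading was left out, with an offset, as shares of both probes and without numbers 3 and 4 of toc90. With the replicate block, as an exact sign-flip test over the 6 numbers, the adjusted p of each was 0.0625, and with averages it was 0.333. PSAN to PSB27 and PSB27 to PSBW also had 0.0625 in the sign-flip test, which therefore did not set the called ratios apart from them. For the called ratios, 0.0625 and 0.333 are at the floor of their tests, whose smallest unadjusted p is 0.03125 and 0.1. They say nothing on whether the calls would hold.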
